A study of Danio rerio with 4 samples.

Results

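The transcripts of 9 transcription factor genes that direct liver and gut development were examined in 72-hour zebrafish larvae (72 hours post fertilization, hpf) of the AB strain. The genes were hnf4a, hnf1ba, foxa1, foxa2, foxa3, cdx1b, gata4, gata5 and gata6, taken by symbol from the deposited table of 27472 genes, in which each symbol occurs once. The DMSO group (solvent control) had 2 libraries and the group given 4 µM bisphenol C (BPC, a bisphenol) had 2 libraries, numbered 1 and 3 in each group. Treatment began at 4 hpf in both groups. The labels name no tissue, no number of larvae per library and no clutch, so the replicate spread behind each p-value may be partly technical. The study's title is about cell proliferation in the liver and intestine of BPC-treated larvae, and the question here is whether regulators of those organs differ in transcript level with exposure.

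FoxA proteins are forkhead pioneer factors that bind closed chromatin in the endoderm and allow other factors to act there. GATA4, GATA5 and GATA6 are zinc finger factors that act in endoderm and also in heart. HNF1 and HNF4 factors sustain epithelial gene expression in liver, gut, pancreas and kidney, and Cdx1b is a caudal homeodomain factor of the intestinal epithelium. Several of the 9 genes are not confined to the digestive organs: foxa2 is also expressed in the floor plate, foxa3 in the hatching gland, and hnf1ba in the hindbrain and pronephros.

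Expression was given as FPKM (sequenced fragments divided by transcript length and by the library's mapped total), with library sums of 355364 to 425611 FPKM. Read depth is unknown, so no counting interval could be given. Changes were tested with limma on log2(FPKM + 1) over 19873 genes that reached 0.5 FPKM in 2 or more libraries, with Benjamini-Hochberg adjustment and a threshold of 0.05. All 9 regulators passed that filter. The cdx1b gene passed through its DMSO libraries and 1 BPC library. Heart and kidney as well as digestive genes were detected in DMSO (the cardiac gene myl7 at 11.3 and 14.1 FPKM, the pronephric transporter gene slc4a4a at 12.6 and 12.6 FPKM), so the RNA was of mixed tissues. On this scale the median log2 change of all tested genes was -0.12, and changes relative to it are called relative changes.

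In BPC larvae, 7 of the 9 regulators fell and 0 rose in the limma test (0 rose at an unadjusted p under 0.05 either). Those that fell were cdx1b, hnf1ba, foxa3, hnf4a, foxa1, gata6 and foxa2, in order of the size of the log2 change. Leaving out either DMSO library, or the BPC library numbered 1, lowered the count of 7. Calls over all tested genes also became fewer then, in both directions. After median centring 4 of the 9 fell, beside 10.0% of all tested genes, and after quantile normalization 4 fell, beside 10.6%. With no filter 4 fell, where 2020 of 26929 genes were lower. In the main test, with all libraries and FPKM as deposited, 17.5% of all tested genes were lower and 7.06% were higher. Among the 6280 tested genes with a mean level between those of the lowest and the highest regulator, 19.6% were lower. The intestinal factor gene cdx1b had the largest change of the 9 and gata5 had a change near 0. In 8 of the 9 genes both BPC libraries lay below both DMSO libraries, a pattern found in 45.1% of all tested genes. The 9 genes were chosen with earlier results of these data known, so these counts were not tested against the shares. The summed level of the 9 genes was 46.6 and 41.2 FPKM in the DMSO libraries and 26.4 and 26.9 FPKM in the BPC libraries, 60.7% of the DMSO mean. In RNA of mixed tissues, fewer cells of a type and less RNA per cell cannot be told apart.

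**Figure D1:**
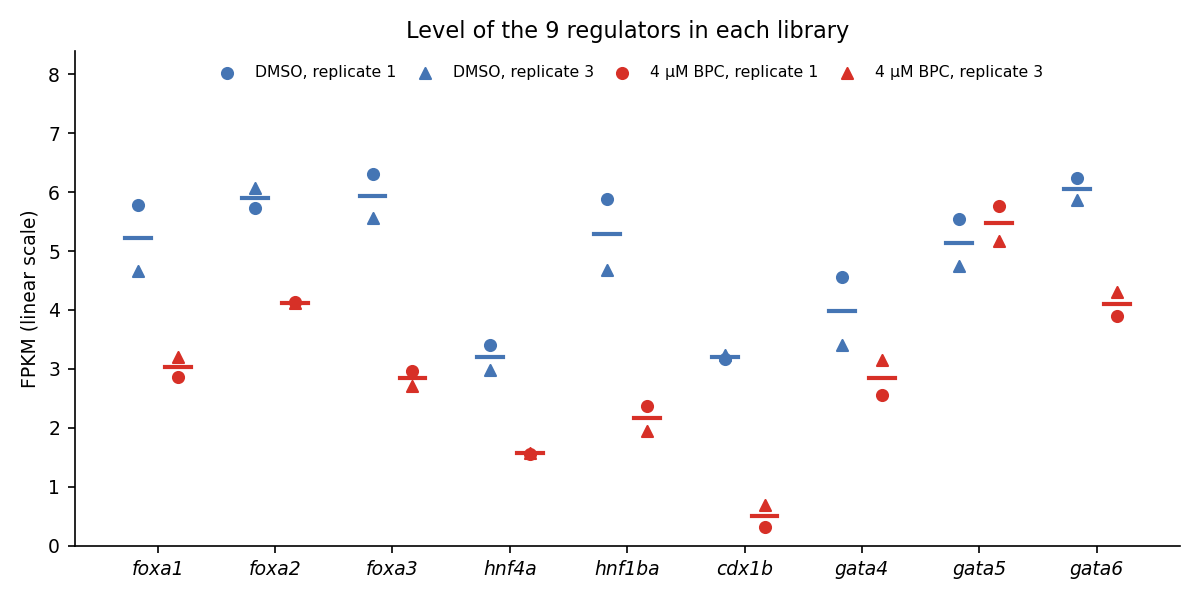
FPKM of each regulator (vertical axis, linear) in the 2 DMSO libraries (blue) and the 2 BPC libraries (red). Circles are replicate 1, triangles replicate 3 and bars the group means. The groups are apart for every gene except gata5, and cdx1b lies lowest in BPC, at 0.309 and 0.692 FPKM.

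The strongest change was that of cdx1b, whose product acts in differentiation of the intestinal epithelium. Its level was 3.17 and 3.23 FPKM in DMSO replicates 1 and 3, against 0.309 and 0.692 FPKM in BPC replicates 1 and 3. The DMSO libraries were close to each other and both BPC libraries were far below them, although the BPC libraries differed by more than the DMSO pair. The BPC mean was 15.6% of the DMSO mean (log2 change -1.50, SE 0.16, 95% interval -1.89 to -1.10, limma adjusted p = 0.00349). Of all tested genes, 1.34% had a more negative log2 change. The cdx1b call was kept under all 17 alternatives run for it, with adjusted p between 0.00134 and 0.0394. Its size was sensitive to the scale, since the level in BPC is under 1 FPKM: the log2 change was -1.27 after quantile normalization and -2.76 with a pseudocount of 0.01.

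Both HNF genes fell. The homeobox gene hnf1ba, needed for liver and pancreas formation in zebrafish, was at 5.88 and 4.69 FPKM in DMSO against 2.37 and 1.95 FPKM in BPC. Both BPC libraries were well below both DMSO libraries. The BPC mean was 41.0% of the DMSO mean (log2 change -0.99, SE 0.15, limma adjusted p = 0.00826, range over 17 alternatives 0.00381 to 0.0947). Omitting DMSO replicate 1 ended the call (log2 change -0.85, adjusted p = 0.061), and without DMSO replicate 3 it was kept (-1.12, adjusted p = 0.0208) unless the gene set of all 4 libraries was held fixed (adjusted p = 0.0512).

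The nuclear receptor gene hnf4a, a regulator of hepatocyte and enterocyte genes, was at 3.40 and 2.99 FPKM in DMSO, a level that overlapped that of cdx1b, and stood at 1.56 and 1.57 FPKM in BPC. The BPC libraries were nearly equal and lay well below the DMSO pair. The BPC mean was 49.0% of the DMSO mean (log2 change -0.71, SE 0.13, limma adjusted p = 0.0141, range over 17 alternatives 0.00549 to 0.137). Omitting DMSO replicate 1 ended the hnf4a call (-0.64, adjusted p = 0.121), and so did omitting DMSO replicate 3 (-0.78, adjusted p = 0.0642). Together hnf4a and hnf1ba summed to 9.28 and 7.67 FPKM in DMSO and 3.94 and 3.52 FPKM in BPC, or 44.0% of the DMSO mean.

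All 3 forkhead genes fell, foxa3 by most. The foxa3 gene was at 6.32 and 5.56 FPKM in DMSO against 2.97 and 2.71 FPKM in BPC. The groups were far apart compared with the gap within either pair. Its BPC mean was 47.8% of the DMSO mean (log2 change -0.85, SE 0.13, limma adjusted p = 0.00778, range over 17 alternatives 0.00339 to 0.0998). Omitting DMSO replicate 1 ended the foxa3 call (-0.78, adjusted p = 0.0676). Without DMSO replicate 3 it was kept (-0.93, adjusted p = 0.0335), but not with the gene set of all 4 libraries held fixed (adjusted p = 0.0658).

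The foxa1 gene was at 5.78 and 4.67 FPKM in DMSO against 2.86 and 3.21 FPKM in BPC, with no overlap. Its BPC mean was 58.1% of the DMSO mean (log2 change -0.62, SE 0.14, limma adjusted p = 0.0261, range over 17 alternatives 0.00781 to 0.215). Omission of DMSO replicate 1 (-0.49, adjusted p = 0.201), of DMSO replicate 3 (-0.75, 0.066) or of BPC replicate 1 (-0.56, 0.0589) ended the foxa1 call.

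The foxa2 gene, which also marks the floor plate, was at 5.73 and 6.08 FPKM in DMSO against 4.13 and 4.12 FPKM in BPC. The BPC pair was nearly identical and lay below both DMSO libraries. Its BPC mean was 69.8% of the DMSO mean (log2 change -0.43, SE 0.12, limma adjusted p = 0.042, range over 17 alternatives 0.00915 to 0.266). Of all tested genes, 21.7% had a more negative change. The foxa2 call did not survive omission of DMSO replicate 1 (-0.47, adjusted p = 0.205), of DMSO replicate 3 (-0.39, 0.266) or of BPC replicate 1 (-0.43, 0.0596).

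The GATA genes were divided. The gata6 gene, which had the highest DMSO mean of the 9, was at 6.24 and 5.87 FPKM in DMSO against 3.90 and 4.31 FPKM in BPC. The groups did not overlap, and the BPC mean was 67.9% of the DMSO mean (log2 change -0.47, SE 0.12, limma adjusted p = 0.037, range over 17 alternatives 0.00857 to 0.251). For gata6 the call ended on omission of DMSO replicate 1 (-0.43, adjusted p = 0.246), of DMSO replicate 3 (-0.50, 0.169) or of BPC replicate 1 (-0.41, 0.0674).

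The gata4 gene was at 4.56 and 3.41 FPKM in DMSO against 2.55 and 3.15 FPKM in BPC. The BPC libraries were below the DMSO libraries, but the gap between the nearest libraries of the groups was smaller than the spread within either group. The log2 change was -0.37 (SE 0.17, 95% interval -0.76 to 0.031, limma adjusted p = 0.15) and did not pass. With TPM scaling the gata4 change passed (-0.65, adjusted p = 0.0362). It was smaller with median centring (-0.22), with quantile normalization (-0.18) and without DMSO replicate 1 (-0.20, adjusted p = 0.621, the highest over the 17 alternatives).

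The gata5 gene, whose loss in zebrafish reduces both endoderm and heart muscle, was at 5.54 and 4.75 FPKM in DMSO against 5.77 and 5.18 FPKM in BPC. The groups overlapped. The log2 change was 0.077 (SE 0.13, 95% interval -0.24 to 0.39, limma adjusted p = 0.695). The direction of gata5 was not stable: the log2 change was -0.15 with TPM scaling and -0.016 without DMSO replicate 3. Its relative change was positive in all 18 settings, the main one included, between 0.070 and 0.30.

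**Figure D2:**
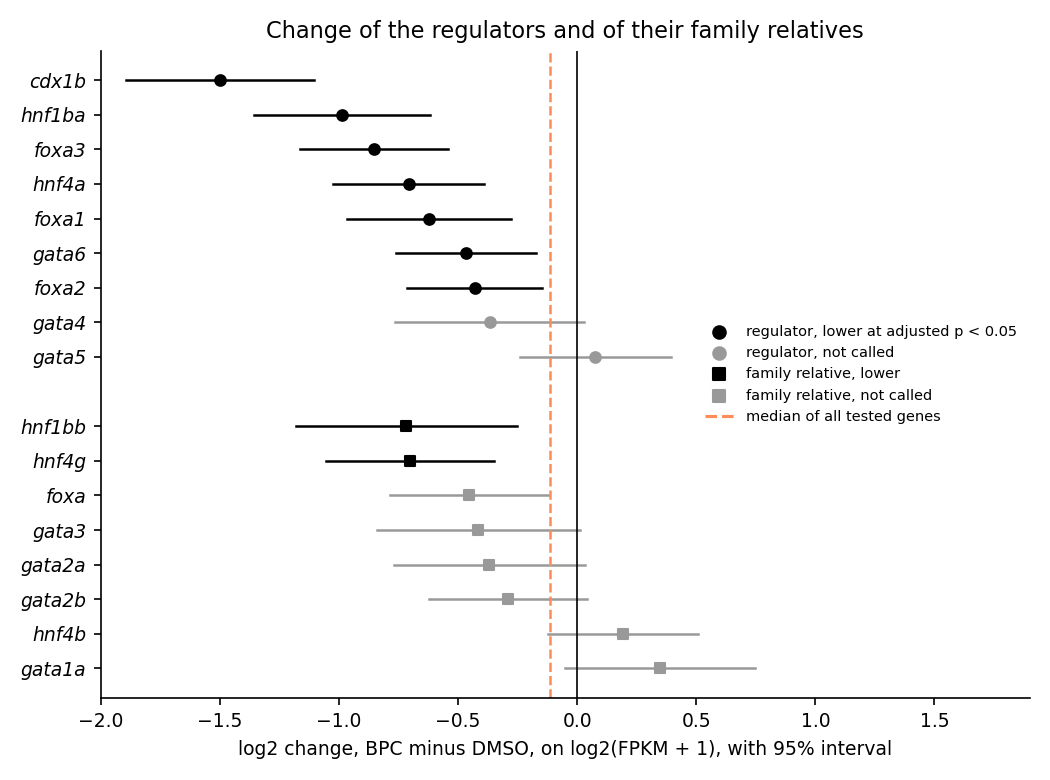
Log2 change (horizontal axis, BPC minus DMSO on log2(FPKM + 1)) with its 95% interval for the 9 regulators (circles) and for 8 tested relatives of the same families (squares). Black marks genes lower at an adjusted p under 0.05, grey those not called, and the dashed line the median of all tested genes at -0.12. The changes of the regulators run from -1.50 for cdx1b to 0.077 for gata5.

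The order of levels differed between the groups. In DMSO the means were 6.06 FPKM for gata6, 5.94 for foxa3, 5.90 for foxa2, 5.28 for hnf1ba, 5.23 for foxa1 and 5.14 for gata5. No neighbours among these were apart beyond the spread of the libraries. The means of gata4 (3.98 FPKM), cdx1b (3.20) and hnf4a (3.19) were lower, and cdx1b and hnf4a overlapped. In BPC, gata5 had the highest mean (5.47 FPKM), above foxa2 (4.12) and gata6 (4.11), which overlapped with each other. Next came foxa1 (3.04), gata4 (2.85) and foxa3 (2.84), each overlapping its neighbour. The lowest were hnf1ba (2.16), hnf4a (1.57) and cdx1b (0.50), whose libraries did not overlap with those of their neighbours. Thus gata5 moved from position 6 to position 1 and foxa3 from position 2 to position 6. All 9 were near the middle of the tested genes or below it, with 26.2% (cdx1b) to 57.8% (gata5) of tested genes at a lower mean level.

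Ratios within a library do not depend on how that library was scaled, and 7 pairs of related regulators were compared this way. With 2 libraries against 2, the smallest two-sided p of an exact permutation test is 0.333, so no ratio could pass. The gata6 to gata5 ratio was 1.13 and 1.24 in DMSO and 0.677 and 0.833 in BPC. In DMSO gata6 was thus the higher of the pair and in BPC gata5 was, in every library (log2 difference of the ratio -0.65, exact permutation p = 0.333, 0.466 adjusted over the 7 pairs).

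The gata4 to gata5 ratio was 0.823 and 0.718 in DMSO and 0.442 and 0.608 in BPC, again without overlap (log2 difference -0.57, exact permutation p = 0.333). The gata4 to gata6 ratio was 0.730 and 0.581 in DMSO and 0.654 and 0.730 in BPC, which overlapped (log2 difference 0.084, exact permutation p = 1). The share of gata5 in the summed level of the 3 GATA genes was 33.9 and 33.8% in DMSO and 47.2 and 41.0% in BPC. That sum was 16.3 and 14.0 FPKM in DMSO and 12.2 and 12.6 FPKM in BPC, 81.9% of the DMSO mean.

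Among the forkhead genes the foxa3 to foxa2 ratio was 1.1 and 0.916 in DMSO and 0.719 and 0.658 in BPC. These did not overlap (log2 difference -0.55, exact permutation p = 0.333). The foxa3 to foxa1 ratio, 1.09 and 1.19 in DMSO against 1.04 and 0.844 in BPC, was also lower in BPC without overlap (log2 difference -0.29, exact permutation p = 0.333), whereas the foxa1 to foxa2 ratios overlapped (exact permutation p = 0.667). The share of foxa2 in the summed level of the 3 FoxA genes was 32.1 and 37.3% in DMSO and 41.5 and 41.0% in BPC. That sum was 17.8 and 16.3 FPKM in DMSO and 9.96 and 10.0 FPKM in BPC, 58.6% of the DMSO mean. The hnf4a to hnf1ba ratio was 0.579 and 0.638 in DMSO and 0.659 and 0.803 in BPC (log2 difference 0.26, exact permutation p = 0.333).

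**Figure D3:**
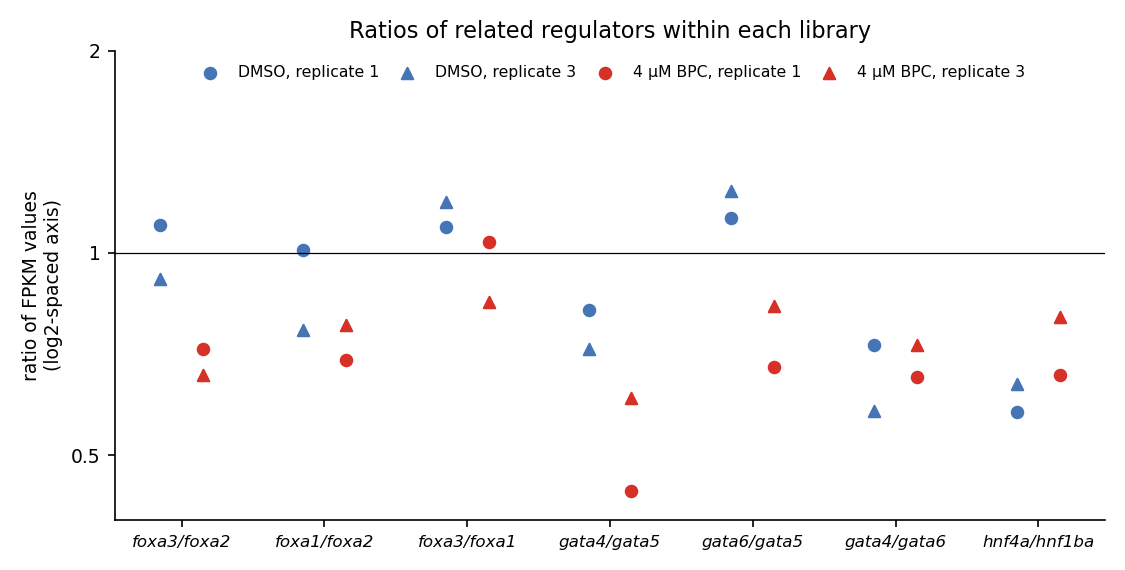
Ratio of the FPKM of 2 related regulators within each library (vertical axis, log2-spaced) for 7 pairs. Blue marks DMSO, red BPC, circles replicate 1 and triangles replicate 3. The gata6/gata5 ratio is above 1 in both DMSO libraries and below 1 in both BPC libraries.

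The calls changed in part with the scaling and with the libraries kept. Omitting 1 DMSO library leaves 1 in that group, and calls then fell over all tested genes as well. A call lost in this way does not by itself show that the change rested on that library. Relative to the main test, the median of all tested genes moved by -0.25 with TPM scaling, 0.15 with median centring and 0.14 with quantile normalization. With median centring, 4 of the 9 regulators were lower, and 10.0% of all tested genes were. With quantile normalization 4 were lower, against 10.6% of all tested genes, and with TPM scaling 8 were lower, against 36.7%. The regulators that kept their calls in all 3 scalings were cdx1b, hnf1ba, foxa3 and hnf4a. Under median centring foxa1 was at -0.47 (adjusted p = 0.0646), gata6 at -0.32 (0.111) and foxa2 at -0.28 (0.128). Omitting DMSO replicate 1 left cdx1b as the single regulator called, with 3.57% of all tested genes lower, and omitting DMSO replicate 3 left cdx1b, hnf1ba and foxa3, with 4.72% lower. The relative change was negative in all 18 settings for each regulator other than gata5. Over the 3 scalings it lay between -0.35 and -0.31 for foxa2 and between -1.87 and -1.28 for cdx1b. The -1.87 was that of TPM scaling, where 1 was added to values larger than the FPKM. The added 1 thus weighed less there, and its part in the cdx1b value was not told apart from that of the scaling.

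**Figure D4:**
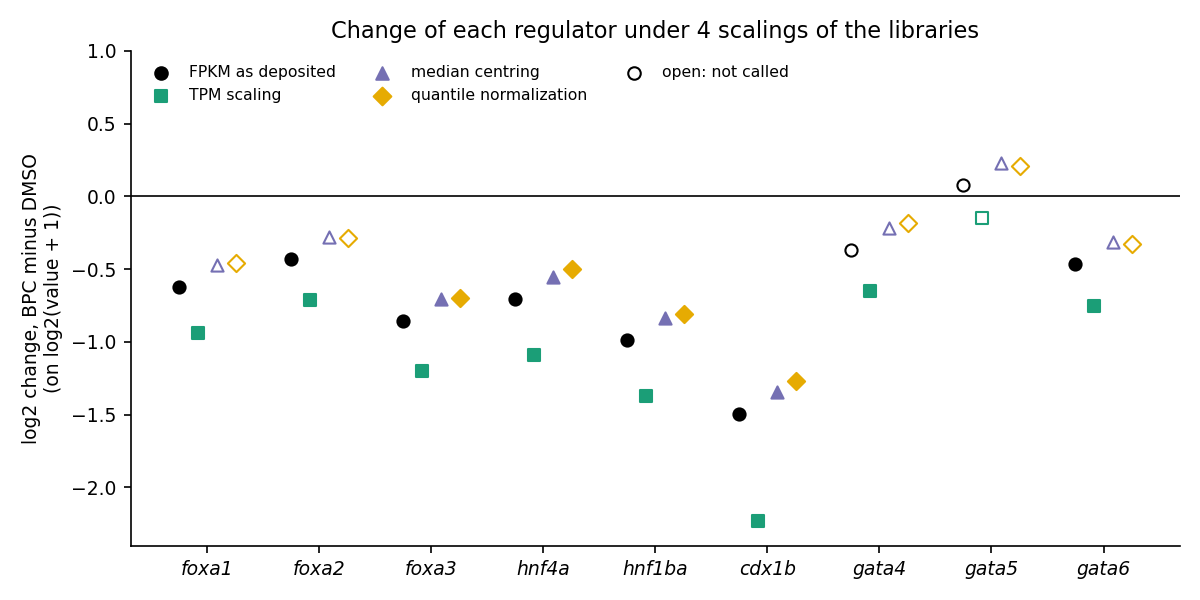
Log2 change of each regulator (vertical axis, BPC minus DMSO) with FPKM as deposited (black circles), TPM scaling (green squares), median centring (purple triangles) and quantile normalization (yellow diamonds). Filled marks passed an adjusted p of 0.05 and open marks did not; foxa3, hnf4a, hnf1ba and cdx1b are filled under all 4.

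In the authors' deposited table, a gene is marked significant where the q-value is under 0.05 and the log2 ratio is at least 1 in size. Of all 27472 genes, those under the filter included, 6.44% are marked as lower. The limma shares above are over the tested genes alone. The authors' deposited table marks cdx1b, hnf1ba, foxa3 and hnf4a, with q-values of 2.45e-10, 6.44e-06, 0.000167 and 8e-04. In the authors' deposited table foxa1 has a q-value of 0.0697, gata6 of 0.151, foxa2 of 0.269, gata5 of 0.496 and gata4 of 0.623. The authors' deposited table and limma therefore called the same direction for those 4 genes, and the calls for foxa1, foxa2 and gata6 were made by limma alone.

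The 12 further members of the same families were listed next to the 9 regulators. Of the 9 relatives that passed the filter, 3 fell and 0 rose, where 17.5% of all tested genes were lower and 7.06% higher. Their median log2 change was -0.41, against -0.12 over all tested genes. The hnf1bb and hnf4g genes were among the relatives that fell. The hnf1ba duplicate hnf1bb was at 2.09 and 1.36 FPKM in DMSO and 0.460 and 0.851 FPKM in BPC (log2 change -0.72, limma adjusted p = 0.0399). The hnf4a relative hnf4g was at 1.04 and 0.706 FPKM in DMSO and 0.149 and 0.143 FPKM in BPC (-0.70, adjusted p = 0.0193), and it was tested only because its DMSO libraries reached the filter, as was gata2b. In contrast hnf4b was at 2.84 and 2.99 FPKM in DMSO and 3.73 and 3.23 FPKM in BPC, and did not pass (0.19, adjusted p = 0.318). None of the calls among the relatives was kept on omission of DMSO replicate 1, of DMSO replicate 3 or of BPC replicate 1. More relatives passed without BPC replicate 3. The count of relatives that fell was 0 after quantile normalization, where 10.6% of all tested genes were lower. It was 1 with median centring (10.0% of all tested genes) and 1 with a pseudocount of 0.01 (2936 of 19873 genes). With no filter it was 1, where 2020 of 26929 genes were lower. With TPM scaling it was 6, where 36.7% of all tested genes were lower.

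Further relatives had no call. The foxa gene was at 2.07 and 1.87 FPKM in DMSO and 1.28 and 1.05 FPKM in BPC (-0.45, limma adjusted p = 0.0564). The haematopoietic and neural GATA genes gata2a (-0.37, adjusted p = 0.151), gata2b (-0.29, 0.168) and gata3 (-0.41, 0.132) did not pass, nor did the erythroid gata1a (0.35, 0.168). The genes gata1b, cdx1a and cdx4 were below the filter. The highest cdx1a value was 0.663 FPKM, in DMSO replicate 1, and its BPC values were 0.170 and 0.305 FPKM.

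Among 6 tested genes for proteins that bind these factors, 1 fell and 1 rose, where 17.5% of all tested genes were lower and 7.06% higher. The coactivator gene ppargc1a, a partner of HNF4A in mammals, fell from 6.40 and 6.52 FPKM to 2.35 and 3.78 FPKM (log2 change -0.90, limma adjusted p = 0.0187). With no filter the ppargc1a call was lost. The HNF1 dimerization cofactor gene pcbd1 rose from 13.2 and 12.3 FPKM to 23.2 and 19.4 FPKM (0.69, adjusted p = 0.0129), the opposite direction to hnf1ba and hnf1bb. Neither cofactor call was kept without DMSO replicate 1 or without DMSO replicate 3, which left 0 and 0 calls. The GATA cofactor genes zfpm1 (0.059, adjusted p = 0.773), zfpm2a (-0.56, 0.0514) and zfpm2b (-0.036, 0.841) and the repressor gene nr0b2a (0.27, 0.231) did not pass. The nr0b2b gene was below the filter.

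Of 31 other tested regulators of liver, gut and pancreas, 6 fell and 2 rose, with a median log2 change of -0.25 (relative change -0.13). Since 17.5% of all tested genes were lower and 7.06% higher, these counts were close to those of genes in general. The bile acid receptor gene nr1h4 fell from 2.16 and 2.03 FPKM to 0.246 and 0.475 FPKM (-1.19, limma adjusted p = 0.00458), and both BPC values are under the filter, so nr1h4 was tested through its DMSO libraries. The endocrine and neural gene neurod1 also fell (-0.90, adjusted p = 0.00701). The rises were those of creb3l3b (1.06, adjusted p = 0.0199) and the fatty acid receptor gene pparaa (0.64, 0.0344). With TPM scaling 17 of these regulators were lower and 1 higher, where 36.7% of all tested genes were lower and 759 of 19873 higher. With median centring 5 of them were lower and 4 higher, where 10.0% of all tested genes were lower and 2441 of 19873 higher. Fewer of these regulators passed in either direction without DMSO replicate 1 or DMSO replicate 3, and more without BPC replicate 3. The same held over all tested genes. Without DMSO replicate 1 or DMSO replicate 3 the summed calls over the 12 lists set beside the 9 regulators went from 58 lower and 18 higher to 17 and 8 or to 22 and 7.

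Genes of the organs in which the 9 regulators act were measured in the same libraries. The shares over all tested genes were 17.5% lower and 7.06% higher in the main test. With no filter, 2020 of 26929 genes were lower and 748 higher. Without DMSO replicate 1 or DMSO replicate 3 both shares were smaller than in the main test. Of 19 tested enterocyte genes 13 fell and 1, apoa4a, rose, with a median log2 change of -0.78; rbp2a (-1.83, limma adjusted p = 0.000574), vil1 (-2.59, 0.00118) and anpepb (-1.84, 0.00236) led the fall. Of 31 hepatocyte genes 12 fell, cyp8b1, fabp10a and uox first, and 4 rose, g6pc1a.1, kng1 and tat among them, with a median of -0.27. Of 13 exocrine pancreas genes 9 were tested and 9 fell, led by prss59.2, cpa5 and prss59.1, and 9 of the 13 fell with no filter. Of 4 mucous cell genes 3 were tested and fell (muc5.1, agr2 and muc5.2), and 2 of the 4 fell with no filter. Many of these genes reached the filter in DMSO alone. They were 6 of the 9 exocrine, 6 of the 19 enterocyte and 5 of the 31 hepatocyte genes tested. Of the genes named above, prss59.2, prss59.1, anpepb and cyp8b1 were tested through their DMSO libraries alone. The counts over tested genes were thus partly set by the filter. With no filter 12 of 25 enterocyte and 11 of 32 hepatocyte genes fell. Without DMSO replicate 1 or DMSO replicate 3, the falls were 3 or 5 for enterocyte, 4 or 4 for hepatocyte and 3 or 3 for exocrine genes (3 of which then passed the filter), and 2 or 1 hepatocyte genes rose. With the gene set of all 4 libraries held fixed, those falls were 6 or 8, 8 or 8 and 9 or 9. The summed level of the 13 exocrine genes was 86.9 and 107.0 FPKM in DMSO and 3.26 and 4.98 FPKM in BPC. The summed level of the 32 hepatocyte genes was 4547 and 4014 FPKM in DMSO and 3231 and 3620 in BPC. That of the 25 enterocyte genes was higher in BPC, 2696 and 2690 FPKM in DMSO against 3380 and 3251 FPKM. Most of it was apoa1a, at 1911 and 1955 FPKM in DMSO against 2797 and 2701 FPKM in BPC. The apoa1a level gained more than the sum did, so the remaining enterocyte genes together were lower in BPC. The part of these cell types in the fall of the 7 regulators was not tested.

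Genes of other tissues that express some of the 9 regulators gave mixed counts, beside 17.5% lower and 7.06% higher over all tested genes. Those shares are of the main test. With TPM scaling 7286 of 19873 genes were lower and 759 higher. The counts were 1997 and 2441 with median centring and 2111 and 1948 with quantile normalization. With no filter 2020 of 26929 genes were lower and 748 higher. Both shares were smaller without DMSO replicate 1 or DMSO replicate 3. Of 13 heart genes, where the 3 GATA genes also act, 4 rose and 0 fell, with a median log2 change of 0.25. The natriuretic peptide genes nppa (2.26, limma adjusted p = 0.00169) and nppb (1.41, 0.0175) and the cardiac light chain gene myl7 (0.88, 0.00722) led. With TPM scaling 3 heart genes rose and 1 fell. With median centring 6 rose and 0 fell, and with quantile normalization 5 rose and 0 fell. Of 8 floor plate and notochord genes, where FoxA genes are also expressed, 1, tbxta, rose (0.56, adjusted p = 0.0353) and 0 fell. The count of rises in that list was 0 on leaving out any 1 of the 4 libraries, with no filter and with TPM scaling, where 2 fell, and it was 2 with median centring or quantile normalization. Of 7 hatching gland genes, where foxa3 is also expressed, 4 rose, he1.1, ctslb and he1.2 first, and 1, agr2, fell. The agr2 gene is also counted among the mucous cell genes above. The ctslb gene was at 0.298 and 0.098 FPKM in DMSO and 31.3 and 13.7 FPKM in BPC, so it was tested through its BPC libraries alone. Of 13 pronephros genes, where hnf1ba and hnf4a are also expressed, 4 fell and 1, pax8, rose. These counts were 0 and 0 without DMSO replicate 1, 2 and 0 without DMSO replicate 3, 1 and 0 with no filter, 2 and 1 with quantile normalization and 7 and 0 with TPM scaling. The largest falls were those of slc4a4a (-1.17, limma adjusted p = 0.0163), cubn and cdh17, of which the latter pair are enterocyte genes as well. The cubn gene, at 0.174 and 0.379 FPKM in BPC, was tested through its DMSO libraries alone. Of 8 pharyngeal, thyroid and swim bladder genes 6 fell and 0 rose, with tg (-1.28, adjusted p = 0.00429), anxa5b and foxe1 leading. The count of falls in this pharyngeal group was 4 with median centring, 4 with quantile normalization, 4 with no filter and 6 with TPM scaling. Without DMSO replicate 1 or DMSO replicate 3, 3 or 2 of the pharyngeal group fell and 2 or 2 heart genes rose. With no filter 2 heart genes rose, and without BPC replicate 1, 2 hatching gland genes rose. The part of these tissues in the values of the regulators was not tested.

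The annotation in the deposited table gives all 9 genes the terms DNA binding and nucleus. It gives 5 of them, hnf1ba, cdx1b, gata4, gata5 and gata6, the term liver development, and 3, hnf1ba, cdx1b and gata5, the term pancreas development. The 5 genes under liver development include the most changed regulator, cdx1b, and the least changed, gata5. The genes whose profile over the 4 libraries lay nearest to that of cdx1b, by Euclidean distance of the centred log2(FPKM + 1) values, were slc6a1a (distance 0.070), tmem136b (0.074) and mpp4a (0.076). The slc6a1a gene fell from 24.2 and 24.5 FPKM to 6.49 and 9.28 FPKM, tmem136b from 2.72 and 2.68 to 0.201 and 0.452, and mpp4a from 3.15 and 3.31 to 0.243 and 0.703. With 4 libraries in 2 groups, this likeness describes little beyond the size of the group difference.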

How the data were processed

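Polyadenylated RNA was sequenced as paired-end, dUTP-marked Illumina libraries, per the labels' protocols. The authors deposited FPKM values, 1 per gene and library, with their ratio of group means, its log2, a p-value and a q-value, per the file headers. Among tools, the notes of the submitters list StringTie 1.3.4d, HISAT2 2.0.4, cutadapt 1.9, edgeR and DESeq2 without saying what each did. Not given in the sources used here are the genome build, the use of strand and the handling of reads shared between paralogues. The pathway tables for a single pair of libraries were not used here.

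Columns were matched to samples by name. Depth is unknown: among 1331 low genes with a single transcript, 1.13% shared the most frequent ratio between the DMSO libraries, so no common read step was found. FPKM scaling makes each value depend on the other transcripts of its library. Values were transformed to log2(FPKM + 1) and fitted with limma 3.58.1 (R 4.3.3), group being the single term, with an intensity trend (prior of 4.47 degrees of freedom) and two-sided p-values adjusted over 19873 genes. Changes of low genes are understated by this transformation. The fit was tested on simulated data with noise of a set size, and with changes placed in genes above the mean levels of cdx1b and hnf4a. That run checked the working of the fit and not the calls reported here. Alternatives were pseudocounts of 0.1 and 0.01, no filter, a filter of 1 FPKM, TPM scaling, median centring, quantile normalization, no trend, the replicate number as a block, and leaving out each library. Leaving out each library with the gene set of all 4 held fixed was added after seeing the data. A lone library is then assumed to vary like the other group.

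The 9 genes and the 12 lists beside them (190 of 206 symbols matched, the 9 included) were chosen with earlier results of these data known, and no list was tested. Genes named were all 9, their relatives and cofactors, up to 3 called genes per direction of each other list by p, and the 3 profiles nearest to the regulator with the smallest p. Some genes that meet this rule are counted in their lists but not reported here by name.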

Additional observations from a re-analysis of the deposited data

How the results depend on the processing

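The cdx1b call was kept under all 17 alternatives, and 0 regulators rose under any of them. With no filter, 2020 genes were lower and 748 higher of 26929 tested, 4 regulators fell (foxa1, log2 change -0.62, foxa2, -0.43, and gata6, -0.47, were lost, at adjusted p of 0.0639, 0.0677 and 0.0663), and higher calls summed over the lists were 9. With TPM scaling 7286 genes were lower and 759 higher, gata4 gained a call (-0.65) and gata5 changed sign (-0.15, adjusted p = 0.434). With median centring 1997 genes were lower and 2441 higher, 4 regulators fell (foxa1 at -0.47, foxa2 at -0.28 and gata6 at -0.32 were lost) and higher list calls were 28. With quantile normalization 2111 genes were lower and 4 regulators fell (foxa1 at -0.46, foxa2 at -0.29 and gata6 at -0.33 were lost). The cause of each difference was not tested. Pseudocounts of 0.1 and 0.01, the stricter filter and no trend changed no regulator's call.

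The replicate numbers do not pair the libraries by any label, and deviations of the same-numbered libraries correlated at 0.0081 across genes. With the replicate block foxa2 (-0.43, adjusted p = 0.0689) and gata6 (-0.47, adjusted p = 0.0578) lost their calls, and 3282 genes were lower.

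Leaving out 1 library at a time gave 675 to 4146 lower and 329 to 2097 higher genes (452 to 3983 and 149 to 2040 with the gene set held fixed), 1 to 7 regulators lower, and 17 to 64 lower and 7 to 20 higher list calls (26 to 62 and 6 to 21 with the gene set held fixed). The log2 change ran from -0.78 to -0.64 for hnf4a, -1.12 to -0.85 for hnf1ba, -0.75 to -0.49 for foxa1, -0.47 to -0.39 for foxa2, -0.93 to -0.78 for foxa3, -0.52 to -0.41 for gata6, -0.53 to -0.20 for gata4 and -0.016 to 0.17 for gata5. Without DMSO replicate 1, cdx1b alone was called, and without DMSO replicate 3, cdx1b, hnf1ba and foxa3 were, or cdx1b alone with the gene set held fixed. Adding 1 FPKM before taking ratios turned none of the 7 ratios. With unknown depth and levels of 0.309 to 6.32 FPKM, counting error could not be separated from the spread between libraries.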
